A study of Danio rerio with 6 samples.

Results

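miR-17, miR-18, miR-20 and miR-93 were followed here in ZF4 cells, a fibroblast line made from zebrafish embryos, at normal and at low culture temperature. The members are the 8 strands of these miRNAs named dre-miR-17a-5p, dre-miR-17a-3p, dre-miR-18a, dre-miR-18b-5p, dre-miR-18c, dre-miR-20a-5p, dre-miR-20b-5p and dre-miR-93. They were taken by name from a table of 414 miRNAs, 349 known and 65 predicted. Small RNA was sequenced from 3 control samples grown at 28°C and from 3 samples that had spent 30 days at 18°C, the cold acclimation group. All samples came from this 1 cell line in the same medium, with no other treatment in the labels, so the comparison is of a line in culture and not of fish. The labels number the samples of a group but do not say whether they were separate cultures, so the p-values below measure only the spread between these samples, which may be technical.

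miR-17 and its relatives are processed from hairpins that lie close together in the genome and are transcribed as one precursor. The best known of these precursors, miR-17-92, is in mammals driven by Myc and E2F and promotes cell proliferation. A miRNA finds its target mRNAs mainly through its seed, the bases near its 5′ end. dre-miR-17a-5p, dre-miR-20a-5p, dre-miR-20b-5p and dre-miR-93 share the miR-17 seed, and dre-miR-18a, dre-miR-18b-5p and dre-miR-18c share the miR-18 seed, which differs from it by a base. dre-miR-17a-3p is the partner strand from the other arm of a miR-17a hairpin and has a seed of its own. In mammals, the targets of the miR-17 seed include inhibitors of the cell cycle such as p21.

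Levels are given in TPM, here the reads of a miRNA per 1000000 miRNA reads of its library, with no length term. The strands are all of miRNA length, but ligation and amplification can favour some sequences, so an order of levels between strands is an order of reads. Reads were inferred by taking the smallest value above 0 in a library as 1 read. By this the libraries held between 11748241 and 14960610 miRNA reads, and 1 read was worth between 0.0668 and 0.0851 TPM. The series gives no markers, so the cell type lists were chosen here. All 6 listed fibroblast and mesenchyme miRNAs, dre-miR-21 among them, had a mean above 1.5 TPM. They summed to between 403065 and 407839 TPM in control and between 388176 and 427961 TPM in cold acclimated cells. This sum was nearly all dre-miR-21, at 386375 to 396585 TPM in control and 379977 to 421105 TPM in cold acclimation libraries. The others on the list had log2 fold changes below 0, at -1.58 for dre-miR-214 and -1.04 for dre-miR-199-3p (adjusted p = 0.012 and 0.0063 from limma). dre-miR-145-5p, dre-miR-199-5p and dre-miR-143 lay at -0.71, -0.68 and -0.19 (adjusted p = 0.46, 0.10 and 0.89). Summed levels were 433 to 516 and 528 to 655 TPM for 3 neural miRNAs, and at most 20.5 TPM in any library for each of the muscle, epithelial, blood and liver lists, and no miRNA of these lists was at 0 in all libraries. The neural sum was higher in every cold acclimation library than in every control library. It was nearly all dre-miR-128-3p (log2 fold change 0.37, adjusted p = 0.087 from limma), while dre-miR-9-5p lay at -0.23 and dre-miR-124-3p at 0.173 TPM on average. Another miR-124 strand, dre-miR-124-4-5p, is not on the list and rose (log2 fold change 3.11, adjusted p = 3.3e-06 from limma). The part of the neural miRNAs in the results was not tested. Control replicate 3 stood apart in some miRNAs, for example with 374 TPM of dre-miR-143 against 4765 and 4665 TPM in the other controls, so results that rest on it are also given without it. In bulk samples, fewer cells that make a miRNA and less of it per cell cannot be told apart.

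The strands spanned a wide range of levels in ZF4 cells. The miR-17 seed was represented by 3 abundant strands, dre-miR-17a-5p, dre-miR-20a-5p and dre-miR-93, and the miR-18 seed by 1, dre-miR-18a, at a far lower level. Over the 6 libraries, mean levels fell from 518 TPM for dre-miR-17a-5p through 367 TPM for dre-miR-20a-5p and 252 TPM for dre-miR-93 to 25.6 TPM for dre-miR-18a and 22.6 TPM for dre-miR-17a-3p. The remaining strands were rare, with 2.71 TPM for dre-miR-18b-5p, 2.02 TPM for dre-miR-20b-5p and 0.874 TPM for dre-miR-18c. In all 6 libraries dre-miR-17a-5p exceeded dre-miR-20a-5p, and dre-miR-20a-5p exceeded dre-miR-93, although the ranges of neighbours overlapped between libraries in 1 of the conditions each. The ranges of dre-miR-18a and dre-miR-17a-3p overlapped in each condition. Of the 4 libraries in which dre-miR-18a was the higher, 1 was a control library and 3 were the cold acclimation libraries. dre-miR-18b-5p was above dre-miR-20b-5p in all 3 control libraries, where their ranges were apart, and in 1 of the cold acclimation libraries, where their ranges overlapped. dre-miR-20b-5p exceeded dre-miR-18c in 5 of 6 libraries.

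**Figure D1:**
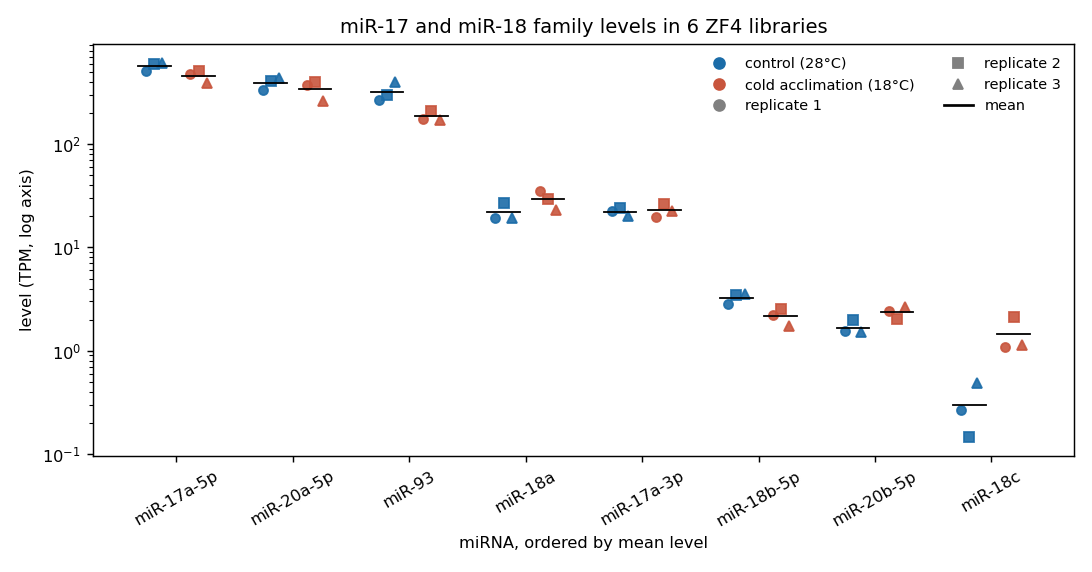
Level in TPM (log axis) of each of the 8 strands in each library, with control libraries in blue, cold acclimation libraries in red, symbols for the replicates and bars for the mean of 3. The strands fall from a mean of 518 TPM for dre-miR-17a-5p to 0.874 TPM for dre-miR-18c, and for dre-miR-18c every cold acclimation library lies above every control library.

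Cold acclimation was compared with control with limma over the 310 miRNAs whose mean exceeded 1.5 TPM, on log2(TPM + 1) with Benjamini-Hochberg adjustment over all 310. A miRNA is said to have risen or fallen at an adjusted p under 0.01. Of the members, 7 were tested and dre-miR-18c was too low. None of the 7 rose and none fell, where 16.5% of the tested miRNAs rose and 14.5% fell (51 and 45 miRNAs, together 31.0%). At an unadjusted p under 0.05 in limma, 1 of the 7 members passed, dre-miR-93, where 56.1% of all tested miRNAs passed (174 of 310). The median log2 fold change of the 7 was -0.20, against 0.019 for all miRNAs tested. 3 of the 7 had a log2 fold change above 0 and 4 below. Control and cold acclimation libraries were apart, without overlap, for 4 of the 7, where 58.1% of the tested miRNAs were apart. In 1 of the 4 all cold acclimation libraries lay above (29.7% of tested miRNAs) and in 3 all lay below (28.4%). These shares are close to the background or rest on few strands and are no result about the members. A fold on log2(TPM + 1) understates the change of a rare strand.

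dre-miR-93, which carries the miR-17 seed, was the member nearest to a call. Its level was 264, 296 and 395 TPM in control replicates 1, 2 and 3, and 175, 209 and 172 TPM in cold acclimation replicates 1, 2 and 3. Every cold acclimation library was below every control library, and control replicate 3 was the highest of all. The mean went from 318 ± 68.0 TPM in control to 185 ± 20.4 TPM in cold acclimated cells (mean ± SD, n = 3). The log2 fold change was -0.76 (standard error 0.20, 95% interval -1.20 to -0.32), and the adjusted p of 0.01005 from limma missed the threshold. Without control replicate 3 the log2 fold change was smaller, -0.60, and the adjusted p from limma was 0.0075, in a fit in which 21.6% of miRNAs fell. At an adjusted p under 0.05, dre-miR-93 was the only tested member to pass, where 24.8% of miRNAs fell. The call also depended on how libraries were scaled, as described below.

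The other abundant strands of the miR-17 seed were lower on average in cold acclimated cells but passed no test in TPM. dre-miR-17a-5p had 514.5, 598 and 613 TPM in the control libraries and 474, 514.5 and 393 TPM in the cold acclimation libraries. The groups did not overlap, but control replicate 1 and cold acclimation replicate 2 were all but equal, at 514.484 and 514.460 TPM. The mean went from 575 ± 52.9 to 460 ± 61.7 TPM (mean ± SD, n = 3), and the log2 fold change was -0.32 (95% interval -0.70 to 0.049, adjusted p = 0.134 from limma). dre-miR-20a-5p had 333, 404 and 434 TPM in control and 371, 395 and 262 TPM in cold acclimation libraries. Its groups overlapped, and only cold acclimation replicate 3 lay below all controls. The log2 fold change of dre-miR-20a-5p was -0.20 (95% interval -0.65 to 0.25, adjusted p = 0.437 from limma), and -0.019 without cold acclimation replicate 3, so its lower average rests on that library.

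dre-miR-20b-5p, the rare strand with the miR-17 seed, stood on the other side. It had 1.54, 1.97 and 1.52 TPM in control and 2.40, 2.04 and 2.65 TPM in cold acclimation libraries. Every cold acclimation library was above every control library, with 22 to 37 reads behind each value. The mean went from 1.67 ± 0.255 to 2.36 ± 0.305 TPM (mean ± SD, n = 3), and the log2 fold change of 0.33 did not pass (95% interval -0.11 to 0.77, adjusted p = 0.189 from limma). Added up, the 4 strands with the miR-17 seed had 1113, 1300 and 1443 TPM in control and 1022, 1121 and 831 TPM in cold acclimation libraries, sums whose groups overlapped. Within this sum, dre-miR-93 held 24.6% ± 2.41 in control and 18.8% ± 1.84 in cold acclimated cells, and dre-miR-20a-5p held 30.4% ± 0.655 and 34.4% ± 2.48 (mean ± SD, n = 3). Between the conditions, the shares of dre-miR-93, dre-miR-20a-5p and dre-miR-20b-5p (0.132% and 0.245% on average) did not overlap. Those of dre-miR-17a-5p did, at 44.9% ± 2.11 and 46.5% ± 0.734. Because the shares divide the same sum, a lower share of dre-miR-93 raises the others, and dre-miR-20a-5p was not higher in TPM on average. No background for such shares was computed.

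Of the strands with the miR-18 seed, dre-miR-18a was higher on average in cold acclimated cells. It had 19.3, 27.1 and 19.3 TPM in control and 35.2, 29.6 and 22.9 TPM in cold acclimation libraries. Control replicate 2 lay above cold acclimation replicate 3, so the groups overlapped. The log2 fold change was 0.40 (95% interval -0.12 to 0.92, adjusted p = 0.182 from limma). dre-miR-18b-5p went the other way, with 2.81, 3.43 and 3.52 TPM in control and 2.24, 2.55 and 1.72 TPM in cold acclimation libraries, on 24 to 51 reads per library. Its groups did not overlap, but the log2 fold change of -0.43 did not pass (95% interval -0.89 to 0.030, adjusted p = 0.109 from limma).

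dre-miR-18c, the rarest member, differed most in proportion. It had 0.267, 0.146 and 0.483 TPM in control libraries, which is 13 reads in all, and 1.08, 2.13 and 1.15 TPM in cold acclimation libraries, 54 reads in all. Every cold acclimation library was above every control library, and cold acclimation replicate 2 was the highest. The ratio of the levels from pooled reads was 4.75, with a counting interval of 2.56 to 9.48 (exact binomial, 95%), which covers counting error only and not the spread between samples. dre-miR-18c was below the filter of the test. When all 414 miRNAs were fitted without a filter, its log2 fold change was 0.90 (adjusted p = 0.0056 from limma), in a fit in which 11.6% of miRNAs rose. With a pseudocount of 0.1 in place of 1 it was 1.98 (adjusted p = 0.0059), where 10.4% rose. With 1 library left out and a pseudocount of 1, the call without a filter was lost for each library other than control replicate 3 (adjusted p between 0.012 and 0.043 from limma). Without control replicate 3 it was kept (adjusted p = 0.0091 from limma), in a fit in which 45 of 414 miRNAs rose. With clean reads as library sizes the adjusted p was 0.010006.

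dre-miR-17a-3p, the partner strand from the miR-17a hairpin, was level in TPM. It had 22.5, 23.9 and 20.2 TPM in control and 19.9, 26.5 and 22.5 TPM in cold acclimation libraries, so the control range lay inside the cold acclimation range. The log2 fold change was 0.038 (95% interval -0.41 to 0.49, adjusted p = 0.914 from limma), a sign that turned to -0.25 with clean reads as library sizes, -0.027 with median-of-ratios scaling and -0.11 with library totals that omit dre-let-7a and dre-miR-100-5p.

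How libraries are scaled decides how many of the members are called. TPM are shares of a fixed total, and dre-let-7a and dre-miR-100-5p took far less of it in the cold acclimation libraries. dre-miR-100-5p had 86408 to 101546 TPM in control and 21719 to 27372 TPM in cold acclimation libraries, and dre-let-7a 43429 to 47799 and 21054 to 23612 TPM. With the clean reads of the study as library sizes, the median log2 fold change of all tested miRNAs shifted by -0.25, 32 miRNAs rose and 77 fell (24.8%), and 2 of the 7 members fell, dre-miR-93 (log2 fold change -1.06, adjusted p = 0.0011) and dre-miR-17a-5p (-0.63, adjusted p = 0.0040), by limma. Levels in this scaling also carry the share of clean reads that were miRNA reads, which was lower in the cold acclimation libraries. miRNA reads numbered 14960610, 13710892 and 14498780 in control and 12075864, 11748241 and 13966282 in cold acclimation libraries. Of the members, dre-miR-93 alone fell with median-of-ratios scaling and with totals that omit dre-let-7a and dre-miR-100-5p (log2 fold change -0.83 and -0.91, adjusted p = 0.0043 and 0.0037 from limma), where 20.3% and 20.1% of miRNAs fell. The median of all tested miRNAs shifted by -0.060 and -0.13 in these. Relative to the median of all miRNAs in the same scaling, dre-miR-93 lay between -0.83 and -0.78 under these 4 scalings, and dre-miR-17a-5p between -0.40 and -0.34.

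**Figure D2:**
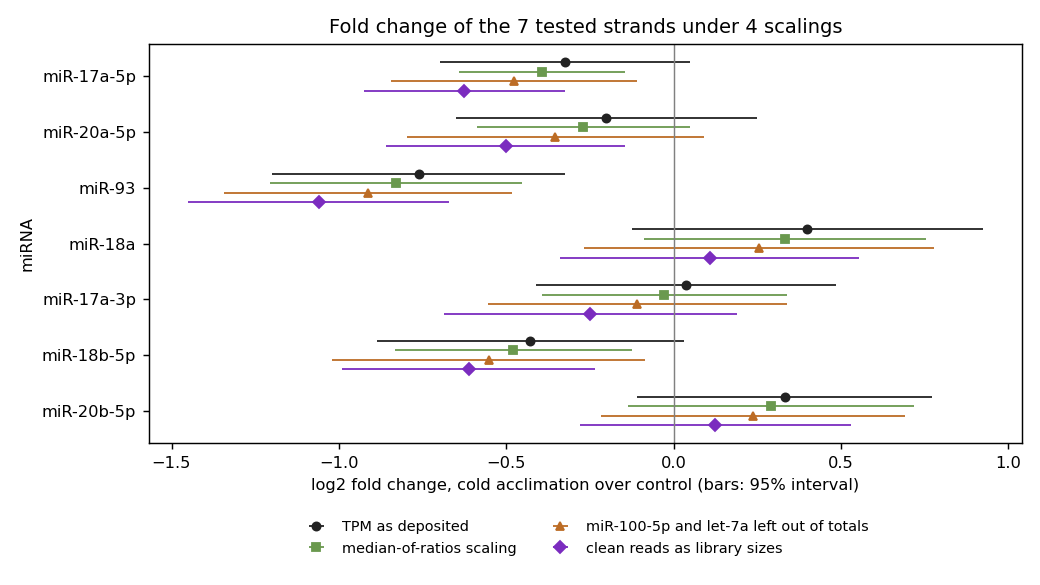
Log2 fold change (cold acclimation over control, x axis) of the 7 tested strands under 4 scalings of the libraries, with bars for the 95% interval from limma. dre-miR-93 lies below 0 with its whole interval in each scaling, while dre-miR-17a-3p changes sign with the scaling.

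The ratio of 2 strands within a library does not depend on scaling, and was compared for 10 pairs. The exact two-sided permutation test cannot give less than 0.1 with 3 against 3 libraries, so no pair could pass 0.05, and the smallest p after Benjamini-Hochberg adjustment over the 10 pairs was 0.143. Set against dre-miR-17a-5p, 5 of the 7 other members had ratios that did not overlap between the conditions, where 62.1% of the other 309 tested miRNAs did not. dre-miR-18c is 1 of these 5 but, being below the filter, is not among the 309. dre-miR-93 stood at 0.514, 0.495 and 0.644 of dre-miR-17a-5p in control and at 0.369, 0.406 and 0.439 in cold acclimation libraries, so that it was lower relative to dre-miR-17a-5p in each of them (difference of the log2 ratio -0.44, exact permutation p = 0.1). dre-miR-18a stood at 0.0374, 0.0453 and 0.0315 of dre-miR-17a-5p in control and 0.0743, 0.0576 and 0.0583 in cold acclimation libraries, higher in each of them (difference 0.74, exact permutation p = 0.1). These strands carry different seeds but 1 of the precursors of dre-miR-17a-5p also holds miR-18a. The ratio of dre-miR-20b-5p to dre-miR-17a-5p was also higher in each cold acclimation library (difference 0.83), as was that of dre-miR-18c (2.70), and that of dre-miR-18b-5p was lower (-0.27). Each of these had an exact permutation p of 0.1. With 1 TPM added to each level, the differences of dre-miR-18c and dre-miR-18b-5p shrank to 1.22 and -0.10. The ratio of dre-miR-20a-5p, the neighbour of dre-miR-17a-5p in level and in seed, overlapped between the conditions (difference 0.12, exact permutation p = 0.3). The summed miR-17 seed exceeded the summed miR-18 seed by a factor of 49.9, 42.4 and 61.9 in control and of 26.5, 32.7 and 32.2 in cold acclimation libraries. No test and no background were computed for this ratio of sums. dre-miR-18a held 85.8% of the miR-18 sum in control and 88.9% in cold acclimated cells on average, shares that overlapped, and its own change did not pass. The shares of dre-miR-18b-5p (13.0% and 6.64% on average) and of dre-miR-18c (1.25% and 4.48%) did not overlap between the conditions. These rest on few reads, and no background for them was computed.

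The balance of the arms of a hairpin shifted most for miR-18b among the 4 miRNAs compared (miR-17a, miR-18b, miR-20a and miR-20b). Its arms had 2.97 ± 1.01 TPM (dre-miR-18b-3p) and 3.25 ± 0.387 TPM (dre-miR-18b-5p) in control, and 5.86 ± 1.23 and 2.17 ± 0.422 TPM in cold acclimated cells (mean ± SD, n = 3). dre-miR-18b-5p over dre-miR-18b-3p was 1.56, 0.940 and 1.02 in control and 0.409, 0.353 and 0.353 in cold acclimation libraries. The ratio was thus lower in every cold acclimation library, by 1.62 on the log2 scale (exact permutation p = 0.1), on 24 to 85 reads per strand and library. dre-miR-18b-3p alone had a log2 fold change of 0.81 that did not pass (adjusted p = 0.023 from limma), and passed without control replicate 3 (0.91, adjusted p = 0.0093). In the fit without that library, 68 of 310 tested miRNAs rose. With any other library left out dre-miR-18b-3p did not pass (adjusted p between 0.026 and 0.104 from limma). Its log2 fold change was 0.58 without control replicate 1. With clean reads as library sizes it did not pass either (adjusted p = 0.069 from limma). For miR-20a the 5p strand exceeded the 3p strand by a factor of 5.79, 5.43 and 6.07 in control and 5.40, 4.92 and 4.60 in cold acclimation libraries, a small shift without overlap (difference of the log2 ratio -0.21, exact permutation p = 0.1). How often arm ratios do not overlap over all hairpins was not computed. Lack of overlap was common among ratios to dre-miR-17a-5p, at 62.1% of the other tested miRNAs. For miR-20b (difference 0.61, exact permutation p = 0.3) and for miR-17a, whose 3p strand stood at 0.0438, 0.0400 and 0.0330 of the 5p strand in control and 0.0419, 0.0515 and 0.0572 in cold acclimation libraries (difference 0.36, exact permutation p = 0.2), the conditions overlapped. Since the 2 hairpins of miR-17a share the 5p strand, their 3p strands tell them apart: dre-miR-17a-2-3p had 4.05 ± 0.667 TPM in control and 4.21 ± 0.941 TPM in cold acclimated cells, against 22.2 ± 1.88 and 22.9 ± 3.32 TPM for dre-miR-17a-3p (mean ± SD, n = 3).

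**Figure D3:**
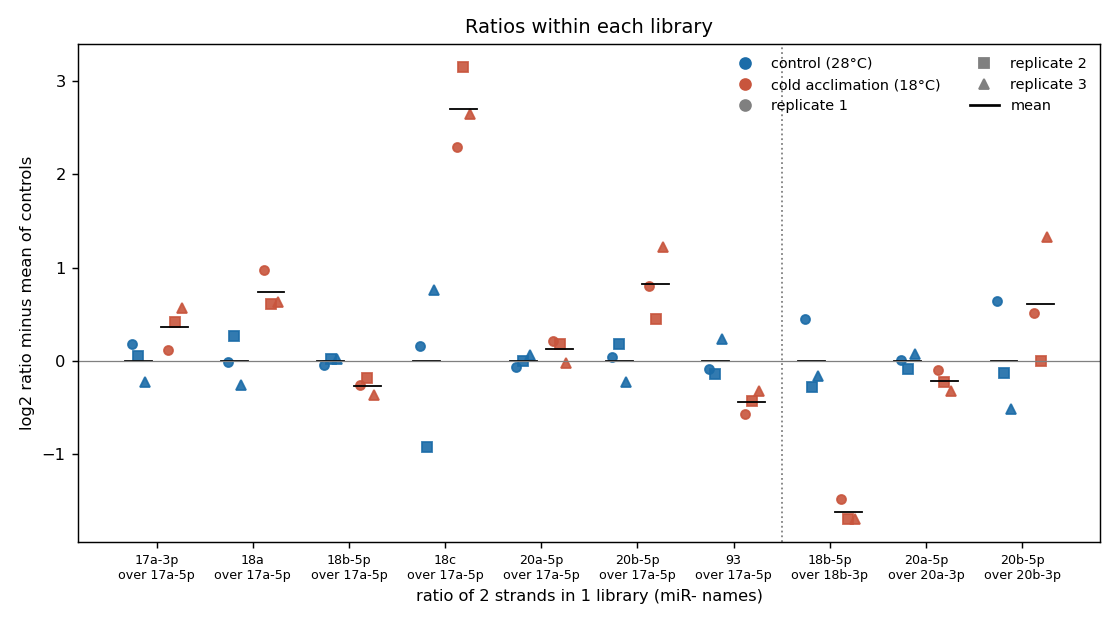
Log2 ratio of 2 strands in each library, less the mean of the 3 control libraries (y axis), for 7 members over dre-miR-17a-5p (left of the dotted line) and for the 5p over the 3p strand of 3 hairpins (right); control in blue, cold acclimation in red, bars for means. The widest shifts without a pseudocount are those of dre-miR-18c over dre-miR-17a-5p (2.70, and 1.22 with a pseudocount of 1) and of dre-miR-18b-5p over dre-miR-18b-3p (-1.62, and -1.24).

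The members come from 4 groups of neighbouring hairpins, as read from the order of miRNA genes in RefSeq (assembly GRCz12tu, hairpins within 10 kb of each other). These groups were looked at after the values had been seen. In the first, mir17a-1, mir18a, mir19a, mir20a, mir19b and mir92a-1 follow each other. The second holds mir17a-2, mir18b and mir92a-2, the third mir18c, mir20b, mir19c and mir363, and the fourth mir93, mir19d and mir25. Log2 fold changes of a group lay on both sides of 0 in each of the 4. Of 11 tested strands of the mir17a-1 group, 2 fell and none rose, a share close to the 14.5% of all tested miRNAs that fell. They were dre-miR-19b-3p (from 1739 ± 297 to 815 ± 172 TPM, mean ± SD, n = 3, log2 fold change -1.10, adjusted p = 0.0015 from limma) and dre-miR-19a-3p (log2 fold change -1.71, adjusted p = 0.0015). From the same group dre-miR-18a (log2 fold change 0.40) did not pass, nor did dre-miR-92a-3p, the most abundant strand of the related miR-25, miR-92 and miR-363 list with 25754 TPM on average (0.16). dre-miR-92a-3p comes from mir92a-1 and from mir92a-2. Like dre-miR-17a-5p, it is counted in this group and in the mir17a-2 group, so these groups are not separate sets of strands.

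In the mir93 group, 3 of 5 tested strands, dre-miR-93, dre-miR-19d-3p and dre-miR-25-3p, were each lower in every cold acclimation library, where 28.4% of all tested miRNAs were. With so few strands, in groups looked at after the values had been seen, this is no result about the group. Of the 3 strands, dre-miR-19d-3p fell (from 535 ± 70.4 to 337 ± 26.4 TPM, mean ± SD, n = 3, log2 fold change -0.66, adjusted p = 0.0091 from limma), while dre-miR-25-3p missed the threshold at -0.44 (adjusted p = 0.013). The call of dre-miR-19d-3p was lost when any library other than control replicate 3 was left out (adjusted p between 0.018 and 0.034 from limma) and with a replicate block (0.015). The partner strands dre-miR-19d-5p and dre-miR-25-5p overlapped between the conditions, with log2 fold changes of 0.65 and 0.16. In the mir18c group, dre-miR-363-3p rose (from 0.768 ± 0.166 to 5.01 ± 1.23 TPM, mean ± SD, n = 3, log2 fold change 1.75, adjusted p = 0.00021 from limma). It passed the filter of 1.5 TPM only through the cold acclimation libraries, with 33 reads in all in control and 187 in cold acclimation libraries. dre-miR-18c, left out by that filter, and dre-miR-20b-5p were also higher in every cold acclimation library, where 29.7% of all tested miRNAs were. dre-miR-19c-3p of the same group was lower in every cold acclimation library (log2 fold change -0.61, adjusted p = 0.054 from limma), where 28.4% were. With 3 strands tested, these are no result about the group. In the mir17a-2 group none of 6 tested strands rose or fell.

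**Figure D4:**
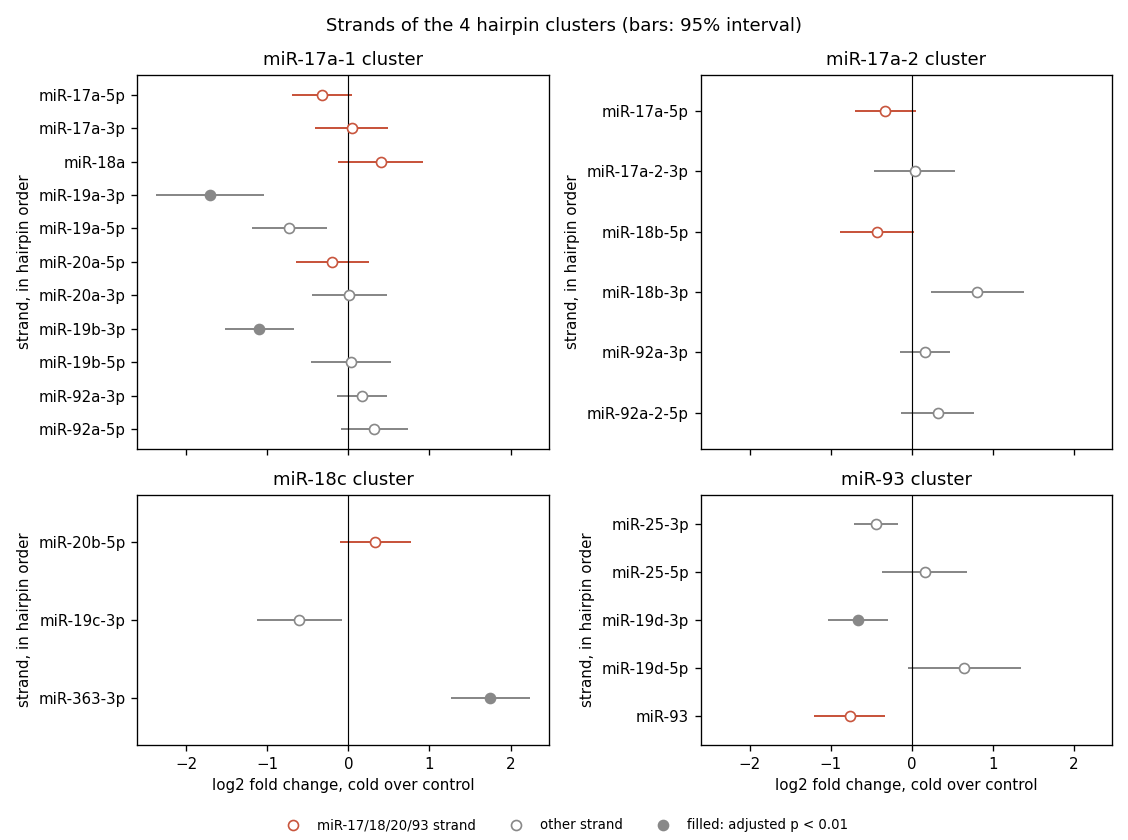
Log2 fold change (cold acclimation over control, x axis) of the tested strands of each hairpin group, from top to bottom in the order of their hairpins, with bars for the 95% interval from limma, members in red, and filled points for an adjusted p under 0.01. Filled points are 3 strands of miR-19 below 0 and dre-miR-363-3p above 0, and no member is filled. dre-miR-363-3p passed the filter only through its cold acclimation libraries.

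The calls of dre-miR-19b-3p and dre-miR-92b-3p were lost without cold acclimation replicate 3 (adjusted p = 0.011 and 0.012 from limma). Counted by list, 3 of 7 tested miR-19 strands fell and none rose, with a median log2 fold change of -0.66, where 14.5% of all tested miRNAs fell, 16.5% rose and the median was 0.019. Of 7 tested strands of miR-25, miR-92 and miR-363, 1 rose and 1 fell (dre-miR-92b-3p, from a hairpin of its own, log2 fold change -1.37, adjusted p = 0.0014 from limma), with a median of 0.16. The strand that rose, dre-miR-363-3p, passed the filter only through its cold acclimation libraries. None of the 3 tested partner strands of the members rose or fell, with a median of 0.038. At an unadjusted p under 0.05, 1 of these 3 passed in limma, dre-miR-18b-3p, against the 56.1% of all tested miRNAs. The median of the 7 tested members, -0.20, lay between that of the miR-19 strands and that of the partner strands.

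The depth behind the members set how much of their spread was counting error. For dre-miR-17a-5p, with 5491 to 8883 reads per library, counting alone gives a coefficient of variation of 1.10% in control and 1.32% in cold acclimated cells, against 9.20% and 13.4% observed between libraries. For dre-miR-18b-5p counting gives 14.6% and 19.2%, against 11.9% and 19.4% observed, and for dre-miR-20b-5p 20.4% and 18.3%, against 15.2% and 12.9% observed. The spread of dre-miR-18b-5p and dre-miR-20b-5p is thus no wider than, or close to, that of counting. For dre-miR-18c the observed values were higher, 57.1% against 48.0% from counting in control and 40.6% against 23.6% in cold acclimated cells. From 3 libraries a coefficient of variation is itself uncertain, and whether these differ was not tested. The sources used here do not say how a read that matches several miRNAs was counted. Strands that share a seed are alike over most of their length, so reads of dre-miR-17a-5p and dre-miR-20a-5p, or of the miR-18 strands, may be shared between them, and the levels of dre-miR-18b-5p, dre-miR-18c and dre-miR-20b-5p beside their abundant relatives are uncertain for that reason.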

How the data were processed

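Small RNA of 3 control and 3 cold acclimation samples was sequenced (single-end, 50 bp). Reads of low quality and those under 17 or over 35 nt were removed by the authors, who aligned the clean reads to miRBase 22 with Bowtie2 2.3.0. Further miRNAs were predicted with miRCat. The deposited table holds CPM, which the authors name TPM, scaled to 1000000 miRNA reads per library, so each value is a whole number of reads times what 1 read is worth. No count test was run on them. No libraries were identical (0 pairs), and 0 columns were left out.

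log2(TPM + 1) of the 310 miRNAs with a mean above 1.5 TPM was compared without pairing with limma 3.58.1 (eBayes with trend) in R 4.3.3, checked on simulated data. Thresholds followed the study, an adjusted p under 0.01 for a call. A fold above 2.5 was not needed for one. Ratios were compared with exact permutation tests in scipy 1.17.1 and figures drawn with matplotlib 3.10.9. Members, lists and tests were chosen with earlier results of these data known. The miRNAs named are the 8 members, their 4 partner strands, of the miR-19, miR-25/92/363 and miR-430 lists the most abundant and any that rose or fell, the 3 nearest in pattern to dre-miR-17a-5p and to dre-miR-18a, and dre-miR-21, dre-let-7a and dre-miR-100-5p. Others, such as dre-miR-143, further miRNAs of the cell type lists, dre-miR-124-4-5p, dre-miR-430b-5p and the further strands of the hairpin groups, were named after their values were seen. Hairpins were matched by symbol (17 of 17) to the RefSeq table of GRCz12tu, whose build is not that of the study's alignment (danRer10), so no coordinates were taken. The alternatives were other pseudocounts (0.1 and 5), other scalings, no filter and a filter at 7.5 TPM, known miRNAs alone, a replicate block, an adjusted p under 0.05 and each library left out in turn. Intervals from reads cover counting error only.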

Additional observations from a re-analysis of the deposited data

How the results depend on the processing

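Of the members, none rose or fell in TPM with the pseudocounts 0.1 and 5, the filter at 7.5 TPM, known miRNAs alone or the replicate block. With the filter at 7.5 TPM, 5 members were tested, without dre-miR-18b-5p and dre-miR-20b-5p. 1 fell (dre-miR-93) at an adjusted p under 0.05, where 24.8% of all tested miRNAs fell, and without control replicate 3 (21.6%). dre-miR-93 alone also fell with totals that omit dre-let-7a and dre-miR-100-5p (20.1%) and with median-of-ratios scaling (20.3%). With library sizes from clean reads 2 members fell, where 24.8% of miRNAs fell. 1 rose (dre-miR-18c) without a filter, where 11.6% of miRNAs rose. It also rose with a pseudocount of 0.1 (log2 fold change 1.98, adjusted p = 0.0059 from limma), where 10.4% rose. That alternative was added after seeing the data. Other alternatives for dre-miR-18c without a filter were added likewise. Without a filter dre-miR-18c passed with totals that omit dre-let-7a and dre-miR-100-5p (adjusted p = 0.0065 from limma), where 35 of 414 miRNAs rose. It passed with median-of-ratios scaling (0.0051), where 46 of 414 rose, but not with library sizes from clean reads. The adjusted p of dre-miR-93 lay between 0.0011 and 0.049 over its 17 alternatives.

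Of all miRNAs, 32 rose and 77 fell when clean reads set the library sizes, 27 fell among known miRNAs alone and 77 fell at an adjusted p under 0.05. With 1 library left out, 24 to 68 rose and 18 to 67 fell, the lowest counts without cold acclimation replicate 1 and the highest without control replicate 3. With 1 library left out, 0 to 1 members fell and 0 rose. No direction changed for 6 of the 7 tested members, but dre-miR-20a-5p shrank to -0.019 without cold acclimation replicate 3. dre-miR-17a-3p turned to -0.25 (clean reads), -0.027 (median of ratios), -0.11 (totals that omit dre-let-7a and dre-miR-100-5p), -0.025 (without control replicate 3) and -0.065 (without cold acclimation replicate 2), and reached 0.13 without cold acclimation replicate 1. In the same settings but for the libraries left out, dre-miR-20a-3p turned to -0.28, -0.055 and -0.14, and to -0.10 without control replicate 1 and -0.11 without cold acclimation replicate 2. dre-miR-17a-2-3p turned to -0.20, -0.019 and -0.086, and to -0.066, -0.016 and -0.064 without control replicate 1, cold acclimation replicate 1 and cold acclimation replicate 2, with up to 0.19 without cold acclimation replicate 3. No ratio between strands changed direction with a pseudocount of 1 or with a library left out, but with a pseudocount of 1 the log2 differences of rare strands shrank, to 1.22 for dre-miR-18c and -0.10 for dre-miR-18b-5p over dre-miR-17a-5p, -1.24 for the arms of miR-18b and 0.39 for those of miR-20b.

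The replicate numbers do not pair the samples by their labels, and the deviations of same-numbered libraries correlated at 0.015, 0.14 and 0.060 across 310 miRNAs. With a replicate block 39 miRNAs rose and 30 fell, no member among them, and dre-miR-18c without a filter had an adjusted p of 0.019. The count models planned for whole reads were not run. Between 84 and 98 values per library lay within the first 20 reads, too few for the planned check of whole reads. The table was therefore analysed as normalized values, and reads given here are inferred from it. Strands on few reads are limited by counting error.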

Other observations

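Outside these hairpin groups, the tested miRNAs whose levels over the 6 libraries lay nearest to dre-miR-17a-5p were dre-miR-737-5p, dre-miR-24 and dre-miR-29b3-3p. Their log2(TPM + 1), each centred on its own mean, differed from that of dre-miR-17a-5p by a root mean square of 0.11, 0.11 and 0.12. Nearest to dre-miR-18a were dre-miR-181d-5p, dre-miR-128-3-5p and dre-miR-128-3p, at 0.15, 0.16 and 0.16. The last of these is a neural miRNA, here with 515 TPM on average. Strands that vary little lie near each other by this measure, which is a description over 6 libraries.

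The miR-430 family clears maternal mRNA in early zebrafish embryos and has a seed related to that of miR-17. Its most abundant listed strand, dre-miR-430b-3p, had 119 ± 78.3 TPM in control and 187 ± 32.3 TPM in cold acclimated cells (mean ± SD, n = 3). Its log2 fold change was 0.96 (adjusted p = 0.158 from limma), and 0.19 without control replicate 3 (adjusted p = 0.435). None of the 3 tested strands on the miR-430 list, all 3p, rose or fell, with a median log2 fold change of 0.96 against 0.019 for all tested miRNAs. dre-miR-430b-5p, not on the list, did not pass either (0.82, adjusted p = 0.029 from limma). It, dre-miR-430a-3p and dre-miR-430c-3p were higher in every cold acclimation library, where 29.7% of all tested miRNAs were. Without control replicate 3 the median of the list was 0.39 and 1 of its strands rose, dre-miR-430a-3p (log2 fold change 0.86, adjusted p = 0.0049 from limma). In that fit 68 of 310 tested miRNAs rose, and the median of all of them was 0.044. In control libraries dre-miR-430b-3p ranged from 31.7 to 182 TPM.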
